A study of Mus musculus with 9 samples.

Results

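The genes described here are 10 effectors of the integrated stress response, namely Atf4, Atf5, Ddit3, Ddit4, Trib3, Chac1, Sesn2, Asns, Pck2 and Nupr1. They were taken by gene name from the table of FPKM (sequenced fragments of a gene relative to its transcript length and to all mapped fragments of the library) that the authors deposited, and each of the 10 names matched 1 of its 40993 genes. The members were chosen by their FPKM and fold changes in these same libraries, with the results of all 3 comparisons known, and Ddit4, Trib3, Nupr1 and Pck2 also stand in networks that the study drew from the same libraries. Their values, fold changes and counts past a threshold are therefore given as a description and not as tests, and no p-value is printed for a member.

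RNA was sequenced from BV2 cells, an immortalized line of mouse microglia. The 9 libraries fell into 3 groups of 3, which were a non-treated control, a low dose of 10 µg/ml MNPs@SiO2(RITC) and a high dose of 100 µg/ml, both given for 12 h. MNPs@SiO2(RITC) are particles with a cobalt ferrite core and a silica shell that carries the dye rhodamine B isothiocyanate. No label says whether the 3 libraries of a group came from separate cultures, so tests measure the spread between these libraries, which may be technical.

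The integrated stress response starts when a kinase that senses stress, such as PERK in the endoplasmic reticulum (ER) or GCN2 in amino acid shortage, phosphorylates the translation initiation factor eIF2α. General protein synthesis then slows, while the mRNA of the transcription factor ATF4 is translated more, so that the Atf4 mRNA level alone does not give the amount of ATF4 protein. ATF4, often as a dimer with C/EBP proteins, switches on genes for amino acid synthesis and transport, tRNA charging, inhibition of growth signalling and, when stress lasts, cell death. In microglia and other macrophages the pathway responds to nutrient supply, ER load and mitochondrial stress.

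ATF4 dimers with C/EBP factors bind a composite element, the C/EBP-ATF response element. Its letters TGATGNAA were searched on both strands of the 250 bases before each start site in the RefSeq promoter table (build GRCm38.p6, the assembly also used for the deposited table). All 10 members had a promoter there, and 4 of the 10 held the letters, namely Chac1, Nupr1, Pck2 and Asns. The letters were found in 3.45% of all 32817 windows and in 2.41% of the 7814 promoter-matched genes whose mean reached 1 FPKM. The sequences that hold them are shown for all 4, in order of the fold change at the high dose against control, largest fall first. They run 5′ to 3′ on the strand of the gene, and capitals mark the 8 bases that match on either strand. For Chac1 (chr2:119350992-119351228, plus strand) the match began 193 bases before the start site, and for Pck2 (chr14:55540016-55540265, plus strand) 103 bases before it. For Nupr1 (chr7:126625562-126625591, minus strand) it began 110 bases and for Asns (chr6:7693214-7693243, minus strand) 23 bases before the start site. Only 30 bases are shown for these last genes, because GENCODE M21 places an exon of another transcript of the same gene there.
Chac1: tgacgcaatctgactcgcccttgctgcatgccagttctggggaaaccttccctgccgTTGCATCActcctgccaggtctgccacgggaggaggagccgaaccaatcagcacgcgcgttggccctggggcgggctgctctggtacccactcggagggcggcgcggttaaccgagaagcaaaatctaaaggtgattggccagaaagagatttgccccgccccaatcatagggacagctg
Nupr1: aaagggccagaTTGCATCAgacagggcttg
Pck2: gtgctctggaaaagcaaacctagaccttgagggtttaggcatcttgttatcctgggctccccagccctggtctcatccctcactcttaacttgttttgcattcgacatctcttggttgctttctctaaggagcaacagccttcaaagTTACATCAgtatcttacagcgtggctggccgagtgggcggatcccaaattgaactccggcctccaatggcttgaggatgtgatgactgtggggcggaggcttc
Asns: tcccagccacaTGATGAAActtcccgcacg

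Among the genes of all lists used below, 95 were found in the promoter table and 11 of them (11.6%) held the same letters, including Aars, Herpud1, Atf3 and Slc7a11. By list, 3 of 8 genes of tRNA charging and export and 3 of 10 other ATF4 or CHOP targets held them. No gene of the eIF2α kinase, eIF2B, ER chaperone, p53 and HIF lists did. A match describes letters in this window and says nothing of binding in these cells. The absence of a match in the other 6 members says only that these letters do not stand in the bases searched.

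The FPKM of a library summed to between 473547 and 522812. Control replicates 1 and 2 and high dose replicate 1 had sums of 519600 or more, and the other 6 libraries of 492137 or less. The depth was estimated from the steps between low FPKM values as 13150000 to 16100000 fragments per library, which is approximate, since only 67.0% to 74.0% of the low values lay within 0.25 of a whole fragment. Of 10 microglia and macrophage markers, 8 had a mean of 1 FPKM or more, and the summed level of the 10 was 1001 to 1186 FPKM in control and 964 to 1110.0 FPKM in high dose libraries. This sum rests mostly on Cd68 and Tyrobp. For 3 of the 10, Aif1 (6.22 to 7.09 FPKM in control and 2.77 to 4.92 FPKM at the high dose), Csf1r (138 to 145 and 116 to 128 FPKM) and Ptprc (73.3 to 74.2 and 59.9 to 73.0 FPKM), every high dose library was below every control library, and the part of this in the members' values was not tested. Aif1 encodes Iba1, and the paper reported that Iba1 staining of BV2 cells rose with the particle dose, which is protein and not mRNA. Cx3cr1 and P2ry12, which are high in resident microglia, had at most 0.0773 and 0.146 FPKM in any library. All 4 neuron, 4 astrocyte and 4 oligodendrocyte markers had a mean below 1 FPKM, and of 4 endothelial markers only Flt1, which macrophages also express, did not. Flt1 had 22.4 to 22.9 FPKM in control and 14.9 to 20.1 FPKM in high dose libraries, while the endothelial marker Cldn5 was at 0 in all 9. In bulk RNA, fewer cells with a transcript and less of it per cell cannot be told apart.

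The members covered a wide range of levels. Per transcript length, the highest mean level in control cells was that of Atf4, 196 ± 4.25 FPKM (SD, n = 3, as for all values here), followed by the asparagine synthetase gene Asns with 82.9 ± 4.53 FPKM and Pck2 with 21.3 ± 0.681 FPKM. Ddit3 (13.0 ± 1.08 FPKM), Sesn2 (11.3 ± 1.33 FPKM) and Ddit4 (11.04 ± 0.312 FPKM) came next, and each overlapped its neighbour in this order. Atf5 (8.50 ± 0.381 FPKM) stood below all Ddit4 libraries and above all Trib3 libraries. Trib3 (6.35 ± 0.254 FPKM) and Nupr1 (6.23 ± 0.887 FPKM) overlapped, and Chac1 was lowest with 0.533 ± 0.0869 FPKM. In high dose cells the mean levels ran Atf4, Asns, Pck2, Ddit3, Atf5, Sesn2, Ddit4, Trib3, Nupr1 and Chac1, so that Atf5 stood above Sesn2 and Ddit4 there. Of these neighbours, Atf4 and Asns, Asns and Pck2, Sesn2 and Ddit4, and Nupr1 and Chac1 did not overlap, and the libraries of the other neighbours did.

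**Figure D1:**
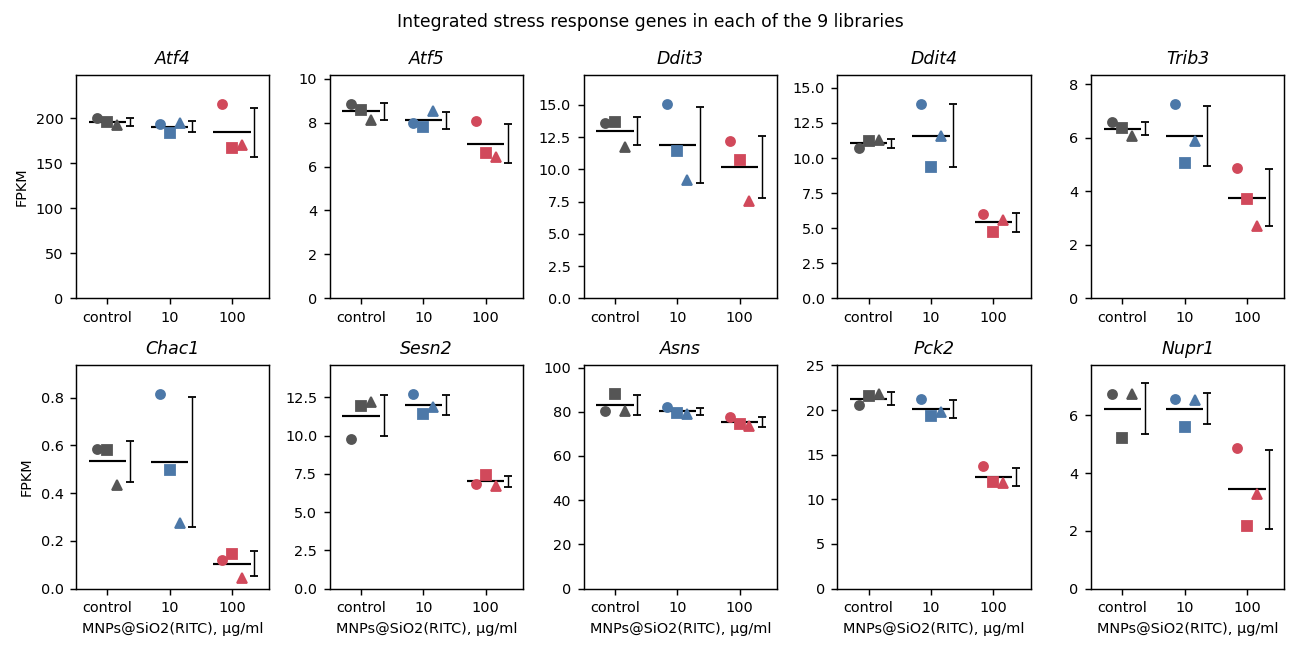
FPKM (vertical axes, each from 0) of the 10 members in control cells and at 10 and 100 µg/ml MNPs@SiO2(RITC), with replicates 1, 2 and 3 as circles, squares and triangles, the mean as a line and ± 1 SD as a bar (n = 3). For Ddit4, Trib3, Chac1, Sesn2, Pck2 and Nupr1 every library at 100 µg/ml stood below every control library and every library at 10 µg/ml, whereas Atf4 libraries overlapped.

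Differences were fitted with limma on log2(FPKM + 1), with all 9 libraries and the 3 groups in one fit, over the 11161 genes whose mean reached 1 FPKM. Fold changes on this scale understate those of low genes. A gene was called at a Benjamini-Hochberg adjusted p under 0.05. Of the 10 members, 9 were in the fit and Chac1 lay below the filter.

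The high dose against control comparison asks how the cells differed after the larger particle load. All 9 fitted members had a log2 fold change below 0, where 50.4% of all genes fitted did. The median was -0.615, against -0.00158 over all genes. Called lower were 3 of the 9, Ddit4, Sesn2 and Pck2, where 1.41% of all genes were called lower, and no member was called higher. For 7 of the 9 all high dose libraries stood below all control libraries, where this held for 11.4% of all genes. Chac1, which lay below the filter, also had every high dose library below every control library, on about 7 estimated fragments against 33. The share over all genes does not cover genes below the filter. The group mean in FPKM was 5.16-fold lower than in control for Chac1, 2.03-fold for Ddit4, 1.81-fold for Nupr1, 1.71-fold for Pck2, 1.69-fold for Trib3 and 1.61-fold for Sesn2. For Ddit3, Atf5, Asns and Atf4 it was 1.28-fold, 1.21-fold, 1.10-fold and 1.06-fold lower. Since the members were chosen with this comparison in view, these counts stand as a description.

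Among the transcription factor genes, Atf4 and Ddit3 overlapped between the groups, and every high dose library of Atf5 and Nupr1 was below every control library. Atf4, the master regulator (chromosome 15, 80255184 to 80257540, as the table gives it in GRCm38, like the positions below), had 201, 196 and 192 FPKM in control replicates 1 to 3, 194, 184 and 195 FPKM at the low dose, and 216, 167 and 170.3 FPKM at the high dose. High dose replicate 1 was the highest of the 9 libraries and the other high dose libraries were the lowest. The log2 fold change of Atf4 at the high dose was -0.0999 (standard error 0.0924), and without high dose replicate 1 it was -0.22 and the gene was called.

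Atf5, a related factor that ATF4 induces and that is linked to the mitochondrial stress response (chromosome 7, 44812257 to 44816658), had 8.86, 8.56 and 8.10 FPKM in control, 7.96, 7.81 and 8.52 FPKM at the low dose, and 8.06, 6.64 and 6.41 FPKM at the high dose. Every high dose library was below every control library, narrowly so for replicate 1. Its log2 fold change was -0.247 (standard error 0.0868), and it was called only without high dose replicate 1, when the log2 fold change was -0.337.

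Ddit3 (chromosome 10, 127290774 to 127296288) encodes CHOP, a factor of prolonged ER stress that favours cell death. It had 13.6, 13.7 and 11.8 FPKM in control, 15.1, 11.4 and 9.21 FPKM at the low dose and 12.2, 10.7 and 7.53 FPKM at the high dose. The groups overlapped, and the low dose libraries alone spanned from above every control to below every control. Its log2 fold change at the high dose was -0.349 (standard error 0.192). Ddit3 and Mars overlap on opposite strands in the table, as do Atf5 and Nup62, and whether the authors' counting used the strand was not stated.

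Nupr1, a small chromatin-bound stress regulator downstream of ATF4 (chromosome 7, 126623249 to 126630861), had 6.73, 5.20 and 6.75 FPKM in control, 6.56, 5.62 and 6.54 FPKM at the low dose, and 4.88, 2.17 and 3.26 FPKM at the high dose. All high dose libraries were below all others. The log2 fold change was -0.742 (standard error 0.202) at the high dose against control and 0.00667 at the low dose. The gene missed the call in both comparisons with the high dose, and was called in both without high dose replicate 1, with log2 fold changes of -0.968 against control and -0.975 against the low dose.

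Of the inhibitors of growth signalling, Ddit4 had the largest fall among the fitted members, while Trib3 and Sesn2 fell less than Nupr1. Ddit4 (chromosome 10, 59949675 to 59951770), also named REDD1, restrains mTORC1 under stress. It had 10.7, 11.2 and 11.3 FPKM in control, 13.9, 9.37 and 11.5 FPKM at the low dose, and 6.001, 4.70 and 5.59 FPKM at the high dose. Its high dose libraries stood well below the others, and the low dose libraries spread on both sides of the controls, with an SD of 2.25 against 0.312 FPKM in control. The log2 fold change at the high dose was -0.91 (standard error 0.129), rank 55 from the largest fall among all genes fitted. The call against control was lost without control replicate 1, 2 or 3, when the log2 fold change was between -0.975 and -0.826 over all libraries left out in turn.

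Sesn2 (chromosome 4, 132492032 to 132510501), which links amino acid and oxidative stress to mTORC1 inhibition, had 9.78, 11.9 and 12.2 FPKM in control, 12.7, 11.4 and 11.8 FPKM at the low dose, and 6.86, 7.44 and 6.72 FPKM at the high dose. The low dose overlapped the controls, and every high dose library was below both. The log2 fold change at the high dose was -0.615 (standard error 0.089). The call against control was lost without control replicate 2, control replicate 3 or high dose replicate 3, and in a fit of the 6 libraries compared alone. With single libraries left out the log2 fold change was between -0.707 and -0.56.

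Trib3 (chromosome 2, 152337422 to 152344032), a pseudokinase that binds AKT and also feeds back on ATF4 and CHOP, had 6.58, 6.38 and 6.08 FPKM in control, 7.28, 5.07 and 5.87 FPKM at the low dose, and 4.87, 3.71 and 2.72 FPKM at the high dose. No high dose library reached the lowest of the other 6. The log2 fold change was -0.649 (standard error 0.168), which missed the call in the fit with all libraries. Without high dose replicate 1 it was -0.812 and the gene was called.

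Chac1 (chromosome 2, 119351229 to 119354381) encodes an enzyme that cleaves glutathione and is one of the most inducible ATF4 targets. It was the lowest member, with 0.584, 0.582 and 0.432 FPKM in control, 0.815, 0.498 and 0.273 FPKM at the low dose, and 0.121, 0.145 and 0.0446 FPKM at the high dose. All high dose libraries were below all others. At the estimated depth these were about 9.4 to 12.6 fragments in a control library and 0.9 to 2.8 in a high dose library. Rounded and summed, 7 fragments stood against 33, a ratio of 0.211 per fragment sequenced at the estimated depths. The low dose sum was also 33, with a ratio to control of 0.994. Such sums leave out the spread between libraries, which within the low dose group ran from 5.4 to 18.0 fragments.

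The metabolic enzymes parted from each other. Pck2 (chromosome 14, 55540266 to 55550017), the mitochondrial phosphoenolpyruvate carboxykinase, which feeds carbon from the citric acid cycle towards serine and glucose synthesis, had 20.5, 21.5 and 21.8 FPKM in control, 21.2, 19.4 and 19.8 FPKM at the low dose and 13.7, 11.9 and 11.9 FPKM at the high dose. The control and low dose libraries overlapped and the high dose stood apart. Its log2 fold change was -0.728, and its standard error of 0.0688 was smaller than that of any other fitted member except Asns. Pck2 was called against control with each of the 9 libraries left out in turn (log2 fold change between -0.791 and -0.696).

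Asns (chromosome 6, 7675169 to 7693254), which makes asparagine from aspartate and glutamine and is a classical ATF4 target, had 80.3, 88.1 and 80.2 FPKM in control, 82.2, 79.5 and 79.0 FPKM at the low dose, and 77.8, 74.6 and 73.5 FPKM at the high dose. The high dose libraries were again below all the others, but the difference was small, with a log2 fold change of -0.136 (standard error 0.0529) and no call. Asns and Pck2 both hold the letters of the response element in the promoter sequences printed above.

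**Figure D2:**
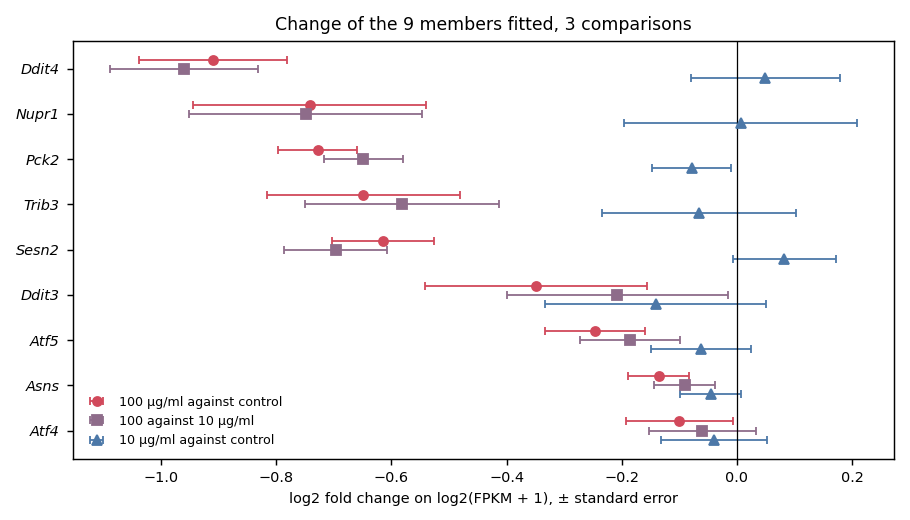
Log2 fold change on log2(FPKM + 1) with its standard error (horizontal axis) for the 9 fitted members in 3 comparisons. At 100 µg/ml the values ran from -0.91 for Ddit4 to -0.0999 for Atf4 against control and from -0.96 to -0.0598 for the same genes against 10 µg/ml, and the values at 10 µg/ml against control lay near 0.

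A level relative to Atf4 in the same library does not depend on the scaling between libraries. Per 100 FPKM of Atf4, Pck2 had 10.2 to 11.3 FPKM in control, 10.1 to 10.9 FPKM at the low dose and 6.32 to 7.13 FPKM at the high dose. Ddit4 had 5.32 to 5.86 FPKM in control, 5.10 to 7.15 FPKM at the low dose and 2.77 to 3.28 FPKM at the high dose. Trib3 had 3.16 to 3.28, 2.76 to 3.75 and 1.60 to 2.25 FPKM in the same order, so that these 3 genes were lower relative to Atf4 in every high dose library. Nupr1 and Chac1 were also below every control library, as were Sesn2 (4.87 to 6.35 in control and 3.17 to 4.46 at the high dose) and Atf5 (4.21 to 4.41 and 3.72 to 3.98). For Ddit3 these groups overlapped (6.12 to 6.97 and 4.42 to 6.44). Asns had 40.0 to 44.9, 40.4 to 43.3 and 35.9 to 44.7 FPKM per 100 FPKM of Atf4, and the groups overlapped.

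Between the low dose and control, 0 of the 9 members and 0 of all genes fitted (0.0%) were called by limma. An unadjusted p under 0.05 was found for 366 of the 11161 genes (3.28%). The log2 fold changes of the members lay between -0.141 for Ddit3 and 0.0824 for Sesn2, with a median of -0.0452, and 6 of the 9 were below 0, where 49.8% of all genes were. No member had groups that did not overlap, where 10.7% of all genes did. Within the low dose group, replicate 1 was the highest library for 8 of the 10 members and the lowest for none, and replicate 2 was the lowest for 7.

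Between the high dose and the low dose, the same 3 members were called lower, where 0.636% of all genes were. Both comparisons share the high dose libraries. The log2 fold changes were -0.96 (standard error 0.129) for Ddit4, -0.749 (0.202) for Nupr1, -0.697 (0.089) for Sesn2, -0.649 (0.0688) for Pck2 and -0.582 (0.168) for Trib3. Those of Ddit3, Atf5, Asns and Atf4 were -0.208, -0.185, -0.0906 and -0.0598. The libraries of 6 of the 9 did not overlap, where all high dose libraries were below all low dose libraries for 9.99% of all genes, and Atf5 overlapped here. Without low dose replicate 1, 0 members were called, without low dose replicate 2 Ddit4 and Pck2, without high dose replicate 2 Sesn2 and Pck2, without low dose replicate 3 or high dose replicate 3 only Pck2, and without high dose replicate 1 Nupr1 joined the 3. With only the 6 libraries of this comparison in the fit, 0 members were called. Over all genes, 95 calls became 8 without low dose replicate 1, 191 without high dose replicate 1 and 6 in the fit of 6 libraries.

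High dose replicate 1 stood nearer to the other groups than replicates 2 and 3. It was the highest high dose library for 8 of the 10 members and the lowest for none, while replicate 3 was the lowest for 7. The mean over the 9 fitted members of their standardized log2(FPKM + 1) was -0.208 in replicate 1, against -1.32 and -1.53 in the other high dose libraries, between 0.0917 and 0.791 at the low dose and between 0.485 and 0.762 in control. Without this library 7 of the 9 members were called lower than control, adding Atf4, Atf5, Trib3 and Nupr1 to the 3. Calls over all 11161 genes, in either direction, rose from 236 to 539 in the same fit. Without control replicate 2 or control replicate 3 only Pck2 of the members was called, and calls over all genes fell to 31 and 96. High dose replicate 1 was also the library with the largest FPKM sum, and the part of this in the members' values was not tested.

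**Figure D3:**
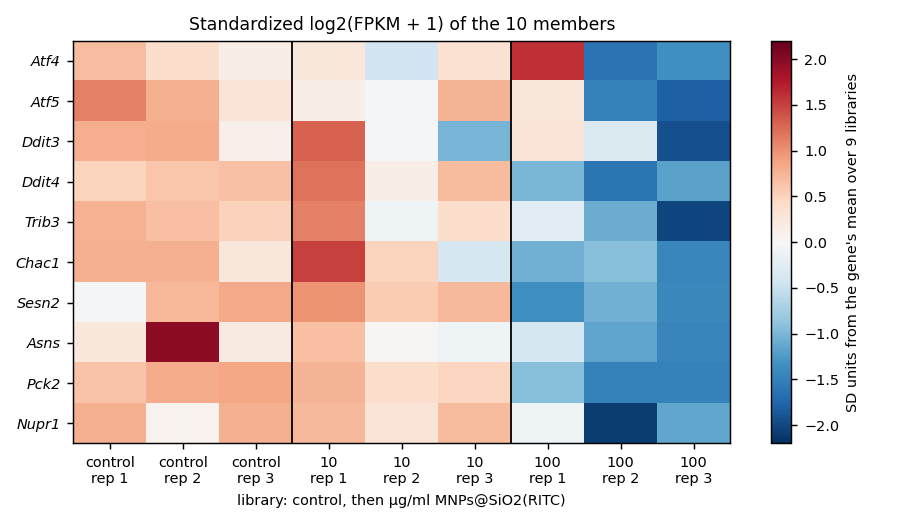
Log2(FPKM + 1) of each member (rows) in each library (columns), in SD units from the gene's mean over the 9 libraries. Replicates 2 and 3 at 100 µg/ml are below the mean for every member, whereas replicate 1 is above it for Atf4, Atf5 and Ddit3, and replicate 1 at 10 µg/ml is the highest of its group for 8 members.

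Among genes outside the members, those with the pattern most like the mean standardized level of the 9 fitted members over the 9 libraries were Nars (Pearson r = 0.98), Psat1 (0.979), Hsp90b1 (0.969), Atxn10 (0.968) and Arf1 (0.968). The points share libraries and treatment groups, so these values only rank genes. Nars, the asparaginyl-tRNA synthetase, had 158, 161 and 151 FPKM in control, 157, 148 and 151 FPKM at the low dose and 132, 122 and 115 FPKM at the high dose. Psat1, an enzyme of serine synthesis, ran from 348 to 354 FPKM in control and from 305 to 330.4 FPKM at the high dose.

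The rest of the pathway, ER chaperones, p53 targets and HIF targets were followed in 10 lists of 119 genes. Of these genes, 118 matched the table and 105 were in the fit, with 17 ER chaperones, 9 p53 targets and 9 HIF targets. These lists were also chosen with earlier results of these data known, so their counts and p-values are given as a description. At the high dose 8 of the 105 were called lower than control and 0 higher, where 1.41% of all genes were lower and 0.708% higher. Among the 8, Sesn1 and Ndrg1 are in the p53 and HIF lists. Between the high and the low dose 3 of the 105 were called, all lower (0.636% of all genes), and between the low dose and control 0 were. The log2 fold change at the high dose was below 0 in 77 of the 105, where 50.4% of all genes were, with a median of -0.0821.

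The kinases that start the response gave no call. Eif2ak1 (HRI, which senses haem and mitochondrial stress) had a log2 fold change of -0.111, Eif2ak2 (PKR, which senses double-stranded RNA) -0.00903, Eif2ak3 (PERK) 0.0556 and Eif2ak4 (GCN2) -0.0605 at the high dose, with adjusted p-values from limma between 0.244 and 0.977. None of the 10 genes for eIF2α itself (Eif2s1, log2 fold change -0.129), its kinases, phosphatase subunits and their regulators was called. The smallest p was that of Dnajc3, an inhibitor of these kinases (log2 fold change -0.224, adjusted p = 0.0695 from limma). None of the 5 eIF2B subunits was called either. Eif2b5, the catalytic subunit, had the smallest p there, where the log2 fold change was 0.135 and limma gave an adjusted p of 0.163.

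Among 12 partner and related transcription factors, none was called. The smallest p was that of Cebpd, a C/EBP factor of acute inflammation, with 11.6, 10.2 and 9.10 FPKM in control and 8.03, 5.73 and 5.84 FPKM at the high dose (log2 fold change -0.592, adjusted p = 0.067 from limma). All of its high dose libraries were below all of its control libraries.

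Enzymes of amino acid synthesis had 2 of 12 genes called, both lower. Mthfd2, the mitochondrial folate enzyme that serves one-carbon metabolism, fell from 89.8, 91.4 and 91.0 FPKM in control to 71.5, 64.4 and 64.9 FPKM at the high dose (log2 fold change -0.434, standard error 0.0542, adjusted p = 0.00962 from limma). Bcat1, which transfers the amino group of branched-chain amino acids, fell from 61.9, 63.0 and 66.7 FPKM to 48.5, 47.3 and 48.1 FPKM (log2 fold change -0.405, standard error 0.0464, adjusted p = 0.0064 from limma). For both genes the low dose libraries lay near the controls, with log2 fold changes of -0.0665 and -0.00198. The median log2 fold change of the list was -0.211, and 9 of the 12 had an unadjusted p under 0.05, where 19.4% of all genes did.

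Of 8 amino acid transporters in the fit, Slc1a4, which carries serine, alanine and cysteine and is a gene that the study singled out on these libraries, was called lower (log2 fold change -0.473, adjusted p = 0.0418 from limma). It missed the call with any of the 9 libraries left out, at adjusted p-values between 0.0562 and 0.168. The median of this list was -0.272.

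Of 13 genes of tRNA charging and export, 2 were called lower. For Nars the log2 fold change was -0.349, with an adjusted p of 0.0239 in limma. Aars, the alanyl-tRNA synthetase, had 81.5, 90.2 and 88.7 FPKM in control and 68.8, 66.8 and 69.9 FPKM at the high dose, for a log2 fold change of -0.336 and an adjusted p of 0.0198 in limma. The list had 11 of 13 log2 fold changes below 0, where 50.4% of all genes were, with a median of -0.126. With 1 library left out, Aars was called in 5 of 9 fits and Nars in 3 of 9, and their largest adjusted p was 0.0993 and 0.117.

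Among 10 fitted genes that ATF4 or CHOP are also known to induce, Herpud1, a component of ER-associated protein degradation, was called lower. It had 44.4, 46.0 and 48.5 FPKM in control and 26.4, 26.6 and 26.1 FPKM at the high dose (log2 fold change -0.788, standard error 0.0566, adjusted p = 0.00117 from limma). It passed the call at the high dose in all 18 alternative fits, with a largest adjusted p of 0.0224. The median of the list was -0.0317, and 5 of its 10 values were below 0, where 50.4% of all genes were.

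ER chaperones, which ATF6 and XBP1 rather than ATF4 mainly control, gave 0 calls among 17 genes, with a median of -0.0841. An unadjusted p under 0.05 in limma was found for 3 of the 17, where 19.4% of all genes had one. The smallest p was that of the protein disulfide isomerase gene Pdia6 (log2 fold change -0.21, adjusted p = 0.113 from limma). Ddit4 and Sesn2 also respond to hypoxia and to p53, so targets of these factors were listed. Of 9 fitted p53 targets, Sesn1, a relative of Sesn2, was called lower, with 14.8, 13.7 and 14.8 FPKM in control and 11.1, 10.3 and 9.98 FPKM at the high dose (log2 fold change -0.43, adjusted p = 0.0123 from limma). Of 9 fitted HIF targets, Ndrg1, a growth arrest gene, was called lower (log2 fold change -0.418, adjusted p = 0.0366 from limma). The medians of these lists were -0.169 and -0.0566. Every high dose library was below every control library for 4 p53 and 3 HIF targets, where this held for 11.4% of all genes. The reverse held for 1393 of all 11161 genes and for 1 gene in each list, Mdm2 (log2 fold change 0.203) and Ldha (0.148). Sesn1 was called in 5 of the 9 fits with a library left out, and Ndrg1 in 2.

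**Figure D4:**
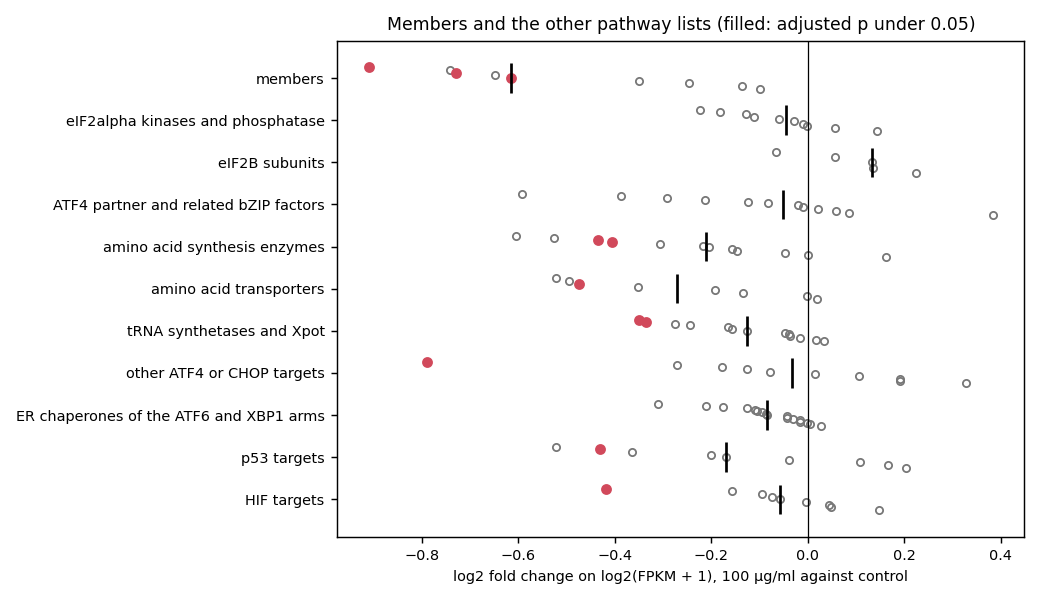
Log2 fold change on log2(FPKM + 1) at 100 µg/ml against control (horizontal axis) for the 9 fitted members and for each fitted gene of 10 other lists (rows), with calls at an adjusted p under 0.05 filled and the median of each row as a bar. All 11 filled points lie below 0, and the medians of the other lists run from -0.272 to 0.133, against -0.615 for the members. The members were chosen with these values known, and the lists with earlier results of these data known.

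The calls in the lists depended on single libraries. Over all genes, 236 calls at the high dose became 31 without control replicate 2 and 539 without high dose replicate 1. The 8 genes called at the high dose became 2 (Bcat1 and Herpud1) without control replicate 2, 3 without control replicate 3 or high dose replicate 3, 4 without control replicate 1 or high dose replicate 2, 5 without low dose replicate 3 and 16 without high dose replicate 1. Between the high and the low dose Mthfd2, Bcat1 and Herpud1 were called, with log2 fold changes of -0.368, -0.403 and -0.855 (adjusted p of 0.0249, 0.0113 and 0.000747 from limma). Without low dose replicate 1, low dose replicate 2 or high dose replicate 3 only Herpud1 remained. Mthfd2 passed in only 1 of the 9 fits with a library left out, that without high dose replicate 1, where 8 genes of the lists were called.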

How the data were processed

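RNA-seq values were taken from 1 table of 9 libraries, grouped by the condition in the labels. Per the paper's methods and the file headers, reads of low quality were discarded, the rest were aligned with TopHat, and the authors deposited FPKM values from Cufflinks 2.1.1 on Ensembl release 77 (GRCm38), corrected for multiply mapped reads and fragment bias. The table holds no counts, so depth was estimated from the steps of low values in 3646 genes (1 transcript only, above 1500 nt), with an assumed fragment length of 200 nt.

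Genes whose mean reached 1 FPKM were fitted as log2(FPKM + 1) with limma 3.58.1 in R 4.3.3 (eBayes with trend, 3 groups in one fit, Benjamini-Hochberg adjustment over 11161 genes). The procedure was tested on simulated data. Tables were made with Python 3.11.15 and pandas 2.3.3. The members and lists were chosen with earlier results of these data known. The rule for named genes covers all members, the 4 eIF2α kinases, list genes called in any comparison, the gene of smallest p at the high dose of each list without a call, and the 5 genes most like the members. Alternatives were other pseudocounts, filters and scalings, eBayes without trend, only the 6 libraries compared, a replicate block and each library left out. Cuffdiff was not rerun.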

Additional observations from a re-analysis of the deposited data

How the results depend on the processing

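The single log2 fold changes of the fitted members moved by less than their within-group SD under every alternative (486 of 486 values). This was fixed in advance where 1 of 3 libraries was left out, since such a shift cannot exceed that SD. Other filters, eBayes without trend, the 6 libraries alone and the replicate block leave the log2 fold change as it is. Only pseudocounts and scalings could have moved it further, so the count does not measure stability. No called member changed sign. The number of members called at the high dose against control was 3, between 1 and 7 with single libraries left out, and 2 (Ddit4 and Pck2) with only the 6 libraries compared. Against the low dose it was 3, between 0 and 4 with single libraries left out, and 0 with only the 6 libraries compared. For the genes of the other lists these numbers were 8 (2 to 16) and 3 (1 to 8). With only the 6 libraries compared they were 1 and 1. Members that did not overlap between the low dose and control numbered 0, and 1 to 4 with a library left out, which leaves fewer libraries to separate. The median log2 fold change of the members at the high dose, -0.615, was -0.677 and -0.684 with pseudocounts of 0.1 and 0.01, -0.544 without the filter, which adds Chac1, and between -0.625 and -0.482 with single libraries left out. At the low dose it was -0.0452 and ranged from -0.0626 to -0.0123. Over all genes, 236 calls at the high dose became 22 with only the 6 libraries compared, 106 with the replicate block and 31 to 539 with single libraries left out. The 95 calls against the low dose became 6, 13 and 8 to 191, and the 0 calls at the low dose became 4 without the filter. Rescaling by median-of-ratios or quantiles moved the median of all genes by at most 0.0141. Where not named, the cause of a change was not tested. FPKM of low genes such as Chac1 rests on a few fragments, which limits their precision.

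Whether replicate numbers pair the libraries could not be settled. The deviations from the group means of same-numbered libraries correlated between -0.088 and 0.152 across genes. For differently numbered libraries this was between -0.166 and 0.143. Deviations within a group of 3 cancel out, so these correlations depend on each other. With the replicate block 5 genes of the other lists were called at the high dose against control and 1 against the low dose. The members called were 3 and 2.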

Other observations

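Several known targets of the pathway lay below the filter of 1 FPKM. Fgf21 and Vldlr, which ATF4 can induce in other tissues, and Cth, an enzyme of cysteine synthesis, were listed at 0 in all 9 libraries. The cationic amino acid transporter gene Slc7a3 had 0.247, 0.248 and 0.0755 FPKM in control, 0, 0.197 and 0.0895 FPKM at the low dose and 0.0763, 0.0424 and 0.0385 FPKM at the high dose. The HIF target Car9, a carbonic anhydrase, had 0.111, 0.204 and 0.0692 FPKM in control and 0.649, 0.698 and 0.179 FPKM at the high dose.

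Some genes of the pathway lists, picked here after their values were seen, were not lower at the high dose. Gdf15, a secreted stress cytokine downstream of ATF4 and CHOP, had 10.8, 12.3 and 11.9 FPKM in control, 15.7, 14.2 and 15.8 FPKM at the low dose and 17.9, 13.5 and 13.5 FPKM at the high dose. All libraries at both doses were above all controls, with log2 fold changes of 0.36 and 0.327, and neither, both against the same controls, passed the call (adjusted p = 1 and 0.151 from limma). Ppp1r15a, or GADD34, which directs the dephosphorylation of eIF2α, had 8.22, 7.28 and 7.71 FPKM in control, 9.45, 8.30 and 9.39 FPKM at the low dose, and 9.68, 8.36 and 7.96 FPKM at the high dose. The high dose overlapped the controls (log2 fold change 0.143, adjusted p = 0.412 from limma), and the low dose did not (0.201, adjusted p = 1 from limma). Atf3, a factor that ATF4 induces, had 84.2, 87.6 and 88.0 FPKM in control and 101, 91.8 and 83.7 FPKM at the high dose, and these groups overlapped. Cebpb, an ATF4 partner, had 11.4, 8.97 and 13.3 FPKM in control and 19.3, 12.7 and 13.2 FPKM at the high dose, for a log2 fold change of 0.384 and an adjusted p of 0.296 in limma. In high dose replicate 1 the levels of Gdf15, Ppp1r15a, Atf3 and Cebpb were the highest of the 9 libraries.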
